A study of Homo sapiens with 6 samples.

Results

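The EGFR family is described here through 9 genes, chosen by name from the 58735 genes of the deposited table. They are the receptors EGFR, ERBB2 and ERBB3, the ligands AREG, EREG, HBEGF, TGFA and NRG1, and the inhibitor ERRFI1, and each name matched 1 gene identifier. RNA was sequenced from MDA-MB-231 cells, an established human TNBC line (triple-negative breast cancer, that is, without oestrogen receptor, progesterone receptor or amplified ERBB2), in 6 samples. In the vehicle group, 3 samples were given vehicle for 24 h, and in the SCH group, 3 samples were given SCH, a preparation of the herb Salvia chinensis Benth (written salvia chinensia benth in the labels), at 100 mg/l for 24 h. All samples were labelled wild type, so they carried the alleles of the line itself. The submitters called the samples biological repeats without saying that they were separate cultures, so p-values measure the spread between these samples. A single line, dose and time was sequenced, and the vehicle was not identified in the labels.

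Receptors of the EGFR family (also called ERBB or HER receptors) are tyrosine kinases of the cell surface that become active as pairs when a ligand binds. AREG, EREG, HBEGF and TGFA bind EGFR, and EREG and HBEGF bind ERBB4 too. NRG1 binds ERBB3 and ERBB4, while ERBB2 has no known ligand and serves as a partner of the others. The ligands are made as membrane proteins and are cut free by proteases of the ADAM family. The active receptors feed the RAS-RAF-MEK-ERK and PI3K-AKT cascades, and ERRFI1 (MIG6), whose own gene is induced by these signals, binds the kinase domain and blocks it. EGFR is known to be abundant in many TNBC cells.

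After SCH treatment, the mRNAs of 3 of the 4 EGFR ligands among the 9 genes were higher, AREG 2.24-fold, TGFA 1.69-fold and HBEGF 1.48-fold, while the fourth, EREG, did not pass the test. EGFR itself fell by 17.7%. NRG1, the ligand of ERBB3, fell by 47.7%, and ERBB3 rose by 66.6% from a low level. ERBB2 rose by 22.5% and ERRFI1 by 15.4%. All 9 genes passed the filter on low counts, and 8 of them passed the threshold of an adjusted p under 0.05 (edgeR quasi-likelihood test, Benjamini-Hochberg adjustment over all 14736 tested genes), 6 raised and 2 lowered. SCH changed 58.7% of all tested genes by this rule, 29.3% raised and 29.4% lowered, so a count of 8 in 9 lies on a high background. Of the changed genes, 49.9% were raised, while without normalization factors (scaling by library size only) 62.6% were raised and the median over all tested genes moved from -0.0034 to 0.099 in log2 fold change. The median absolute log2 fold change was 0.57 over the 9 genes and 0.31 over all tested genes. In size, the changes of EGFR, ERBB2, EREG and ERRFI1 lay below the median of all tested genes and the others above it. Of the 9 genes, 1 (AREG, raised) passed with a log2 fold change of 1 or more in size, as did 8.77% of all tested genes (3.89% raised).

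**Figure D1:**
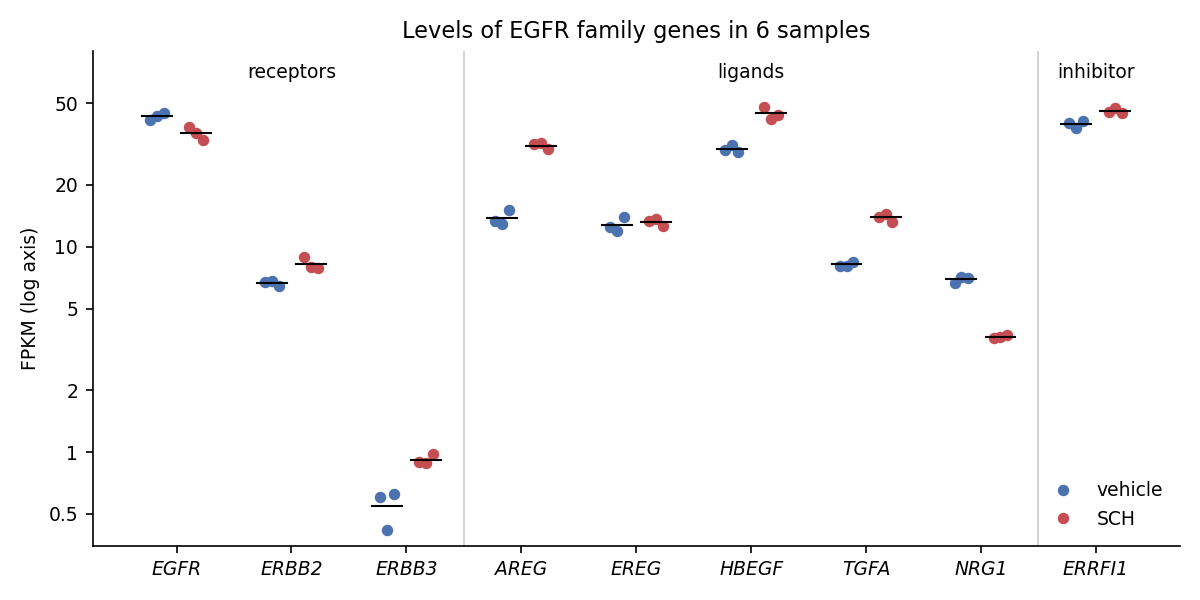
Level per gene length (FPKM, log axis) of the 9 genes in each of the 6 samples, with vehicle and SCH as differently coloured points and black lines for the group means, ordered as receptors, ligands and inhibitor. The groups overlap for EREG and lie apart for the other genes, and ERBB3 lies below 1 FPKM in the group means.

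The cells were checked against markers by FPKM, which divides a gene's count by its length and a factor set per sample and so lets genes of different length be compared. The deposited FPKM were 1.006, 1.008 and 0.995 times the count per length and total count in vehicle and 0.941, 0.937 and 0.937 times in SCH, so they carry a scaling between samples that sets SCH values lower than the total count alone would. The mesenchymal markers VIM (mean 263 FPKM in vehicle and 180 FPKM in SCH), CD44 (96.6 and 99.3 FPKM) and AXL (293 and 164 FPKM) were abundant. ESR1, the oestrogen receptor, had 1 to 4 counts a sample, PGR, the progesterone receptor, at most 1 count, and CDH1, E-cadherin, 1 to 6 counts. SPARC, listed as a high marker, had only 1 or 2 counts a sample, and EPCAM, listed as a low one, was detected at 6.53 FPKM in vehicle and 4.59 FPKM in SCH. Markers of other cells were scarce. Among immune markers, PTPRC, the one with the most counts in vehicle, had 39, 37 and 34 counts in vehicle and 4, 9 and 3 counts in SCH. CD14 had 8 to 21 counts a sample and CD3E at most 1. The endothelial markers PECAM1, CDH5 and VWF summed to 19, 32 and 26 counts in vehicle and to 16, 25 and 31 counts in SCH. The part of these counts in the results was not tested. In bulk RNA, fewer cells that express a gene and less RNA of it per cell cannot be told apart.

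EGFR was the most abundant of the 3 receptor mRNAs (ENSG00000146648, chromosome 7, 55019021 to 55211628 of GRCh38, forward strand, a span of 193 kb). Its counts were 10513, 10085 and 10298 in the vehicle samples and 8617, 8577 and 8145 in the SCH samples. On the scale of normalized CPM (counts relative to the library size after TMM correction), these were 539, 562 and 579 against 494, 460 and 428. Every SCH sample lay below every vehicle sample, with means of 560 ± 20.1 and 461 ± 32.9 CPM (SD, n = 3 each). The log2 fold change was -0.28 (SE 0.052, 95% interval -0.39 to -0.17), with an adjusted p of 6.48e-05 in edgeR. Scaled by library size only, it was -0.18 (adjusted p = 0.00522 in edgeR), so the size of the fall depends on the scaling. The exact two-sided permutation test gave p = 0.1, the smallest value that 3 samples against 3 allow, for EGFR and for each of the other 7 members whose groups lay apart. Groups lay apart in 62.4% of all tested genes. EGFR remained near the top of the range of expression, above 92.6% of the tested genes by FPKM in vehicle and above 91.2% in SCH. Among the 1628 tested genes that span 100 to 200 kb, as EGFR and TGFA do, 31.1% were lowered and 30.5% raised. EGFR, at 193 kb, lies near the upper end of this range. The 722 tested genes that span 200 to 400 kb had a median log2 fold change of -0.235, with 347 lowered and 123 raised. The part of gene length in the fall of EGFR was not tested.

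ERBB2, the partner receptor (ENSG00000141736, chromosome 17, 39687914 to 39730426, forward strand), moved the other way. Its counts were 1408, 1305 and 1225 in vehicle and 1637, 1575 and 1590 in SCH, or 72.2, 72.7 and 68.9 against 93.9, 84.5 and 83.6 normalized CPM. The SCH samples were all higher, and replicate 1 stood above the other two. In edgeR this was a log2 fold change of 0.29 (SE 0.059, 95% interval 0.17 to 0.41, adjusted p = 0.000164). Exons of its neighbours MIEN1 and PGAP3 cover 7.41% of the exonic bases of ERBB2. MIEN1, on the opposite strand, had 515, 516 and 391 counts in vehicle and 506, 557 and 518 in SCH, and the strand setting of the counting is not given in the sources used here, so reads over the shared bases cannot be told apart. ERBB2 was detected in every sample, at 6.67 ± 0.199 FPKM in vehicle and 8.22 ± 0.561 FPKM in SCH (SD, n = 3 each), above 59.0% and 63.0% of the tested genes.

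ERBB3, a receptor with a weak kinase that signals through its partners (ENSG00000065361, chromosome 12, 56076799 to 56103505, forward strand), was the scarcest member. It had 110, 70 and 104 counts in vehicle and 144, 154 and 174 in SCH, which is 5.64, 3.90 and 5.85 against 8.26, 8.27 and 9.15 normalized CPM. Vehicle replicate 2 was low, and no vehicle sample reached any SCH sample. The coefficient of variation of the vehicle samples was 20.9%, where counting error alone gives 10.3%. Its log2 fold change was 0.74 (SE 0.15, 95% interval 0.43 to 1.04, adjusted p = 0.000144 in edgeR), with the widest interval of the 9 genes, and 0.31 on the scale of log2(FPKM + 1). Per length, ERBB3 went from 0.548 ± 0.114 FPKM to 0.919 ± 0.0522 FPKM (SD, n = 3 each), above 14.4% and 21.3% of the tested genes. EGFR thus made up 85.7% ± 0.686 of the summed FPKM of the 3 receptors in vehicle and 79.6% ± 0.606 in SCH. The ratio of ERBB2 to EGFR by FPKM was 0.155 ± 0.00932 in vehicle and 0.230 ± 0.00704 in SCH, and that of ERBB3 to EGFR was 0.0127 ± 0.00268 and 0.0259 ± 0.00334, each with the groups apart. These ratios restate the changes of the single genes and carry no test of their own. Their size depends on the gene length used. With FPKM rescaled to the length of the longest annotated transcript, ERBB2 and EGFR stood at 14.0 and 55.1 in vehicle and at 17.2 and 45.6 in SCH.

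**Figure D2:**
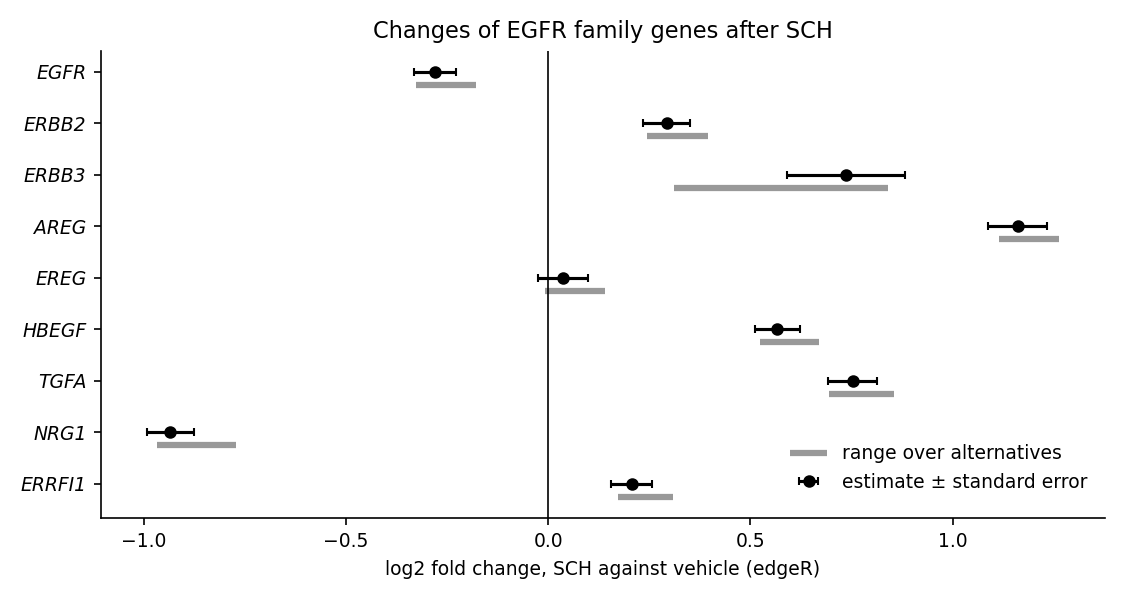
Log2 fold change of SCH against vehicle (horizontal axis) for the 9 genes, as the edgeR estimate (point) with its standard error (bar) and, in grey, the range over the alternative ways of processing. EGFR and NRG1 lie left of 0, EREG straddles it, and AREG lies farthest to the right at 1.16.

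AREG and EREG lie on chromosome 4, 56.4 kb apart and on the same strand, and HBEGF lies on chromosome 5. The bases just before the annotated start of these genes are shown because the neighbours AREG and EREG differed in their response and HBEGF rose with AREG. They were read from RefSeq promoter windows on GRCh38.p14, each 5′ to 3′ on the strand of its gene, and end at the base before the gene start of the deposited table. Capitals mark TATAAA (the TATA box), GGGCGG (the core of SP1 sites) and GGAATG (the core of TEAD sites) on either strand, reverse complements included. TGACTCA (AP-1) was searched too and was not in these windows.
AREG: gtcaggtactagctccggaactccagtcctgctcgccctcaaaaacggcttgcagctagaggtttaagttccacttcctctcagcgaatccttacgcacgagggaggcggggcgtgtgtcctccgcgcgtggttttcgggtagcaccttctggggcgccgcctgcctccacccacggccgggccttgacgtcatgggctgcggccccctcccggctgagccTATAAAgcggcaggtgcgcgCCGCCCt
EREG: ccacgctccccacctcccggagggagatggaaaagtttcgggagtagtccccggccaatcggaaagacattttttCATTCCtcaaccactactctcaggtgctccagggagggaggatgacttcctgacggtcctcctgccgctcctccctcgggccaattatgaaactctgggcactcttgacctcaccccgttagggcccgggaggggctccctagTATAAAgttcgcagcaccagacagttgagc
HBEGF: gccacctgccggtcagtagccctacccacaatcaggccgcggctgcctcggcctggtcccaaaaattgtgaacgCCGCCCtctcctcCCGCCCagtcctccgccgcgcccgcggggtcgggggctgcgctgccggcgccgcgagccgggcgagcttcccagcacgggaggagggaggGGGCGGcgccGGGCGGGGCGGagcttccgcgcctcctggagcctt
AREG is shown as chr4:74444886-74445133 on the forward strand, EREG as chr4:74364895-74365142 on the forward strand and HBEGF as chr5:140346632-140346853 on the reverse strand. Counted from the RefSeq start of each gene, AREG and EREG hold TATAAA 29 and 32 bases before it, AREG holds a GGGCGG on the opposite strand 9 bases before it, and EREG a GGAATG on the opposite strand 175 bases before it. HBEGF holds 5 copies of GGGCGG and no TATAAA. Of all 35116 promoter windows of 300 bases, 11.5% held TATAAA, 45.0% GGGCGG, 14.0% GGAATG and 4.95% TGACTCA, on either strand. The GC content of the stretches was 65.3% for AREG, 58.1% for EREG and 76.1% for HBEGF. A match of letters is a description and not a site in use.

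AREG, amphiregulin (ENSG00000109321, 74445134 to 74455009 on the forward strand of chromosome 4), had the largest change of the 9 genes. Its counts were 445, 396 and 460 in vehicle and 929, 1007 and 966 in SCH. As normalized CPM these were 22.8, 22.1 and 25.9 against 53.3, 54.1 and 50.8. The lowest SCH sample lay far above the highest vehicle sample. The log2 fold change was 1.16 (SE 0.072, 95% interval 1.01 to 1.31, adjusted p = 3.13e-12 in edgeR), and 2.73% of all tested genes had a larger rise. EREG, epiregulin (ENSG00000124882, 74365143 to 74388751 on the same strand), had 1443, 1267 and 1464 counts in vehicle and 1368, 1490 and 1413 in SCH. Its normalized CPM of 74.0, 70.6 and 82.3 in vehicle and 78.4, 80.0 and 74.3 in SCH overlapped. The log2 fold change was 0.037 (SE 0.062, adjusted p = 0.632 in edgeR), and the exact two-sided permutation test gave p = 0.7. The 95% interval of -0.091 to 0.16 corresponds to a change of EREG between -6.10% and 12.1%, and so does not reach that of AREG. Within each sample, the ratio of AREG to EREG by FPKM was 1.07, 1.08 and 1.09 in vehicle and 2.36, 2.34 and 2.37 in SCH. The ratio, in which a scale common to both genes cancels, varied little between replicates (1.08 ± 0.0104 and 2.36 ± 0.0136, SD, n = 3 each), and the groups lay apart. The annotation places 1 gene between them, AC021180.1 on the opposite strand, with 0 counts in all 6 samples.

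HBEGF, heparin-binding EGF-like growth factor (ENSG00000113070, chromosome 5, 140332843 to 140346631, reverse strand), was the most abundant ligand per length in both groups. It had 1811, 1748 and 1608 counts in vehicle and 2575, 2436 and 2610 in SCH, or 92.8, 97.4 and 90.4 against 148, 131 and 137 normalized CPM. The groups lay apart. Its log2 fold change was 0.57 (SE 0.056, 95% interval 0.45 to 0.68, adjusted p = 7.49e-09 in edgeR). TGFA, transforming growth factor alpha (ENSG00000163235, chromosome 2, 70447280 to 70554193, reverse strand, 107 kb), had 809, 742 and 774 counts in vehicle and 1233, 1381 and 1294 in SCH. As normalized CPM, 41.5, 41.3 and 43.5 stood against 70.7, 74.1 and 68.0, a tight rise in every SCH sample. The log2 fold change was 0.75 (SE 0.061, 95% interval 0.63 to 0.88, adjusted p = 2.88e-10 in edgeR). TGFA has a pair of RefSeq windows, of which one held 4 copies of GGGCGG and the other none of the 4 motifs.

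The FPKM of AREG, EREG, HBEGF and TGFA summed to 63.7, 64.1 and 66.5 in vehicle and 106, 102 and 99.7 in SCH. Every SCH sample was above every vehicle sample, at 103 ± 3.44 against 64.8 ± 1.48 (SD, n = 3 each). Set against the FPKM of EGFR in the same sample, this sum was 1.53, 1.48 and 1.49 times that of the receptor in vehicle and 2.77, 2.86 and 3.01 times in SCH. HBEGF held the largest share of the sum, 46.3% ± 2.58 in vehicle and 43.4% ± 1.89 in SCH, and the groups overlapped (exact two-sided permutation test, p = 0.3). AREG went from 21.3% ± 1.34 to 30.2% ± 0.860 of the sum and EREG from 19.7% ± 1.16 to 12.8% ± 0.420. TGFA held 12.7% ± 0.0940 and 13.5% ± 0.616. The sum is over mRNA and not over secreted ligand, which was not measured here.

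**Figure D3:**
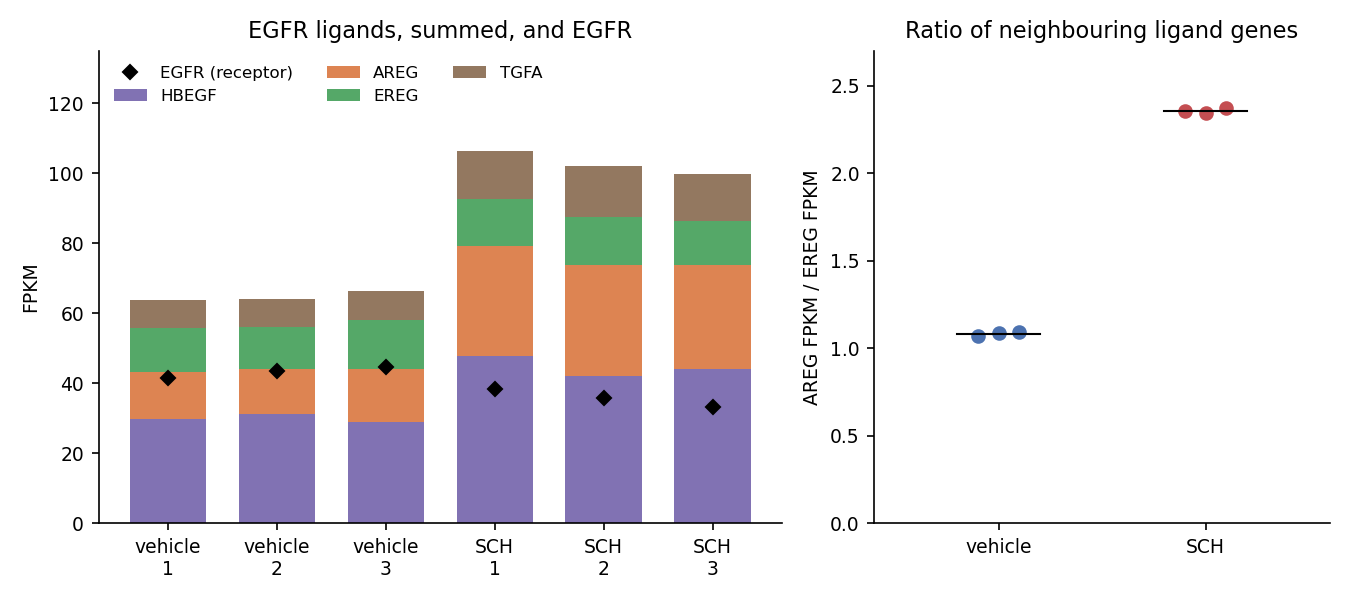
Left, FPKM of AREG, EREG, HBEGF and TGFA stacked for each of the 6 samples, with EGFR as diamonds, and right, the ratio of AREG to EREG by FPKM in each sample with the group means. The stacked ligands reach 63.7 to 66.5 FPKM in vehicle and 99.7 to 106 FPKM in SCH, where the diamonds are lower, and the ratio lies near 1.08 in vehicle and 2.36 in SCH.

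NRG1, neuregulin 1, a ligand of ERBB3 (ENSG00000157168, chromosome 8, 31639386 to 32767959, forward strand), fell, unlike AREG, HBEGF and TGFA. Its counts were 1527, 1493 and 1472 in vehicle and 730, 792 and 824 in SCH, or 78.3, 83.2 and 82.8 against 41.9, 42.5 and 43.3 normalized CPM. The highest SCH sample was not far above the mean of its group (42.6 ± 0.737 CPM, SD, n = 3), and all vehicle samples lay well above it (81.4 ± 2.71 CPM). NRG1 had a log2 fold change of -0.93 (SE 0.059, 95% interval -1.06 to -0.81, adjusted p = 3.55e-12 in edgeR), and 5.78% of all tested genes had a larger fall. NRG1 spans 1129 kb, the longest of the 9 genes. Among the 31 tested genes with a span of at least 1000 kb, 19 were lowered (61.3%) and 2 raised, and their median log2 fold change was -0.96, whereas the 6053 tested genes under 20 kb had a median of 0.0043. The part of gene length in the fall of NRG1 was not tested. The receptor ERBB3 and this ligand changed in opposite directions.

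ERRFI1, the inhibitor of the receptor kinases (ENSG00000116285, chromosome 1, 8004404 to 8026308, reverse strand), had 3379, 2939 and 3150 counts in vehicle and 3403, 3819 and 3669 in SCH. As normalized CPM these were 173, 164 and 177 against 195, 205 and 193. The groups lay apart by a small margin. It rose by 0.21 on the log2 scale (SE 0.050, 95% interval 0.10 to 0.31, adjusted p = 0.00114 in edgeR), the smallest in size of the 8 changes that passed. An exon of the antisense gene AL034417.4, with 9 to 15 counts a sample, covers 3.70% of the exonic bases of ERRFI1. Relative to EGFR in the same sample, ERRFI1 stood at 0.961, 0.872 and 0.915 by FPKM in vehicle and at 1.18, 1.33 and 1.35 in SCH. On this scale the inhibitor mRNA was below that of the receptor in each vehicle sample and above it in each SCH sample. With FPKM rescaled to the length of the longest annotated transcript, EGFR (53.1 to 56.9) and ERRFI1 (51.0 to 55.1) overlapped in vehicle, and ERRFI1 lay above EGFR in SCH (60.1 to 64.1 against 42.2 to 49.0).

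By FPKM, the order in vehicle was EGFR (43.2 ± 1.53), ERRFI1 (39.6 ± 1.57), HBEGF (30.0 ± 1.15), AREG (13.8 ± 1.17), EREG (12.8 ± 1.01), TGFA (8.20 ± 0.232), NRG1 (6.94 ± 0.230), ERBB2 (6.67 ± 0.199) and ERBB3 (0.548 ± 0.114), as means with SD of n = 3. The neighbours AREG and EREG, and NRG1 and ERBB2, overlapped in their sample values. In SCH the order was ERRFI1 (45.9 ± 1.52), HBEGF (44.6 ± 2.85), EGFR (35.7 ± 2.68), AREG (31.1 ± 1.08), TGFA (13.9 ± 0.618), EREG (13.2 ± 0.532), ERBB2 (8.22 ± 0.561), NRG1 (3.65 ± 0.0501) and ERBB3 (0.919 ± 0.0522). There, ERRFI1 overlapped HBEGF and TGFA overlapped EREG. EGFR thus went from the first to the third place. AREG left the overlap with EREG, and NRG1 left that with ERBB2. FPKM divides by the exonic bases of a gene over all its transcripts, with shared bases counted once. With the length of the longest annotated transcript instead, 7 of the 9 genes kept their place in each group, ERBB2 and TGFA moved, and EGFR overlapped ERRFI1 in vehicle and AREG in SCH.

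The genes nearest to EGFR over the 6 samples, by Euclidean distance of log2(CPM + 0.5) centred on its mean and among the 10713 genes whose mean count reached 100, were FAIM (distance 0.035), PPP3CA (0.037) and IQSEC1 (0.058). Their log2 fold changes were -0.30, -0.29 and -0.30, of which that of FAIM did not pass the threshold in 5 alternatives. The distance takes in both the shared fall and the order of samples within a group. From replicate 1 to replicate 3 of SCH, EGFR went from 494 to 428 CPM and FAIM from 10.3 to 8.83 CPM. PPP3CA went from 87.9 to 77.0 CPM and IQSEC1 from 29.5 to 25.3 CPM. The part of the shared fall in this likeness was not tested.

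The other receptor and ligands of the family were scarce. ERBB4 had at most 4 counts in a sample, EPGN at most 3, NRG4 at most 2, and NRG3 had none in any sample, where the floor of 3 counts is 0.148 to 0.178 CPM of a library. EGF, the ligand that gave the receptor its name, had 138, 82 and 95 counts in vehicle and 66, 89 and 72 in SCH, and the groups overlapped. Its log2 fold change was -0.46 (SE 0.17, adjusted p = 0.0259 in edgeR). This call was lost in DESeq2 at a like fold change (-0.46, adjusted p = 0.0575). In edgeR it was lost without vehicle replicate 1, where the fold change was -0.26 (adjusted p = 0.264), and without SCH replicate 1 (-0.40, adjusted p = 0.0889) or SCH replicate 3 (-0.39, adjusted p = 0.0972). BTC, betacellulin, had 34, 31 and 40 counts in vehicle and 48, 44 and 48 in SCH, at a log2 fold change of 0.42 (SE 0.22, adjusted p = 0.110 in edgeR), and NRG2 had 41, 28 and 27 against 17, 27 and 21 counts, at -0.55 (SE 0.28, adjusted p = 0.0935). So 1 of the 3 genes of this list that could be tested passed (33.3%, beside 58.7% of all tested genes). Each of the 7 genes had far fewer counts than any of the 5 ligands described first.

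Around the ligands, 7 of 10 tested genes of ligand shedding changed (70.0%, beside 58.7% of all tested genes), 4 raised and 3 lowered, and the median over the list was -0.018 in log2 fold change. RHBDF1 (iRhom1), which carries ADAM17 to the cell surface, rose from 37.8 ± 3.24 to 82.3 ± 5.84 normalized CPM (SD, n = 3 each), that is, by 1.12 on the log2 scale (SE 0.069, adjusted p = 2.84e-12 in edgeR). FRMD8, which stabilises iRhom proteins, rose from a mean of 45.9 to 65.3 CPM (adjusted p = 4.81e-07 in edgeR). The proteases ADAM9 and ADAM10 fell, from 459 to 329 CPM (adjusted p = 6.62e-09 in edgeR) and from 113 to 89.3 CPM (adjusted p = 1.86e-05). ADAM17, the main protease of AREG, HBEGF and TGFA, and ADAM12 were named after their values were seen. ADAM17 stood at 38.1 ± 1.23 CPM in vehicle and 42.6 ± 1.62 CPM in SCH (log2 fold change 0.16, adjusted p = 0.0389 in edgeR), a call that stood in 7 of the 15 alternatives and was lost, among others, without vehicle replicate 1 or 2 and without SCH replicate 1 or 3 (adjusted p = 0.0537, 0.128, 0.102 and 0.0755). ADAM12 had a log2 fold change of -2.46 at a mean count of only 47, and of -1.58 on the scale of log2(FPKM + 0.1) and -0.40 on that of log2(FPKM + 1), where added constants shrink the change of a scarce gene. ADAM12 spans 376 kb, and the part of gene length in its fall was not tested.

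Of 22 tested adaptors and enzymes at the receptor, 15 changed, 12 raised and 3 lowered, with a median of 0.21. SOS2, an exchange factor that loads RAS with GTP, rose from 36.7 to 69.3 normalized CPM (log2 fold change 0.92, adjusted p = 1.71e-11 in edgeR), and PIK3R1, the regulatory subunit of PI3K, from 28.8 to 46.8 CPM (0.70, adjusted p = 5.62e-08). VAV2, an exchange factor of small GTPases, fell from 61.5 to 38.8 CPM (-0.66, adjusted p = 8.25e-09 in edgeR), and GAB2, a docking protein, from 25.2 to 16.1 CPM (-0.65, adjusted p = 5.54e-07). Of the 15 genes of the kinase cascades, 8 changed, 5 raised and 3 lowered, with a median of 0.00012. PDPK1, which activates AKT, went from 39.8 to 57.8 CPM (0.54, adjusted p = 8.15e-08 in edgeR) and MAP2K1 (MEK1) from 99.8 to 124 CPM (0.31, adjusted p = 8.01e-05). The kinase AKT2 fell from 163 to 114 CPM (-0.52, adjusted p = 8.83e-09 in edgeR). A log2 fold change of 1 in size was reached by 1 gene of both lists, the adaptor GRB7 (1.06, or 0.52 on the scale of log2(FPKM + 1), at a mean count of only 68, named after its value was seen), and shares of 68.2% and 53.3% changed stand beside the 58.7% of all tested genes.

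Of 24 genes linked to inhibition or down-regulation of the receptors, 16 changed (66.7%, beside 58.7% of all tested genes). Of these, 10 were raised and 6 lowered, and the median of the list was 0.017. STAM2, part of the sorting complex that sends receptors to lysosomes, rose from 27.2 to 45.2 normalized CPM (0.74, adjusted p = 1.26e-08 in edgeR), and CBLB, a ubiquitin ligase of active receptors, from 9.99 to 15.9 CPM (0.67, adjusted p = 2.95e-06). On the scale of log2(FPKM + 1), the change of CBLB was 0.34. CBLB spans 214 kb, so not all named genes over 200 kb fell. PTPRJ, a receptor phosphatase, fell from 92.8 to 48.6 CPM (-0.93, adjusted p = 1.54e-12 in edgeR), and LRIG3, of a family of membrane proteins that act on these receptors, from 21.4 to 15.3 CPM (-0.49, adjusted p = 4.08e-05). Of 15 genes listed as responsive to ERK or as feedback on the pathway, 13 changed (86.7%, beside the same 58.7%). Of these, 6 were raised and 7 lowered, and the median of the list was 0.10. EGR1, an immediate early transcription factor, rose from 30.8 ± 1.69 to 117 ± 15.9 CPM (SD, n = 3 each), that is, by 1.92 on the log2 scale (SE 0.080, adjusted p = 2.96e-15 in edgeR), and SPRED3, an inhibitor of RAS signals, from 10.0 to 17.6 CPM (0.81, adjusted p = 3.53e-07). SPRY1, another inhibitor, fell from 31.6 to 15.0 CPM (-1.08, adjusted p = 1.54e-10 in edgeR), and DUSP4, a phosphatase of ERK, from 363 to 226 CPM (-0.69, adjusted p = 1.98e-11). The genes of this last list thus did not move in one direction.

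**Figure D4:**
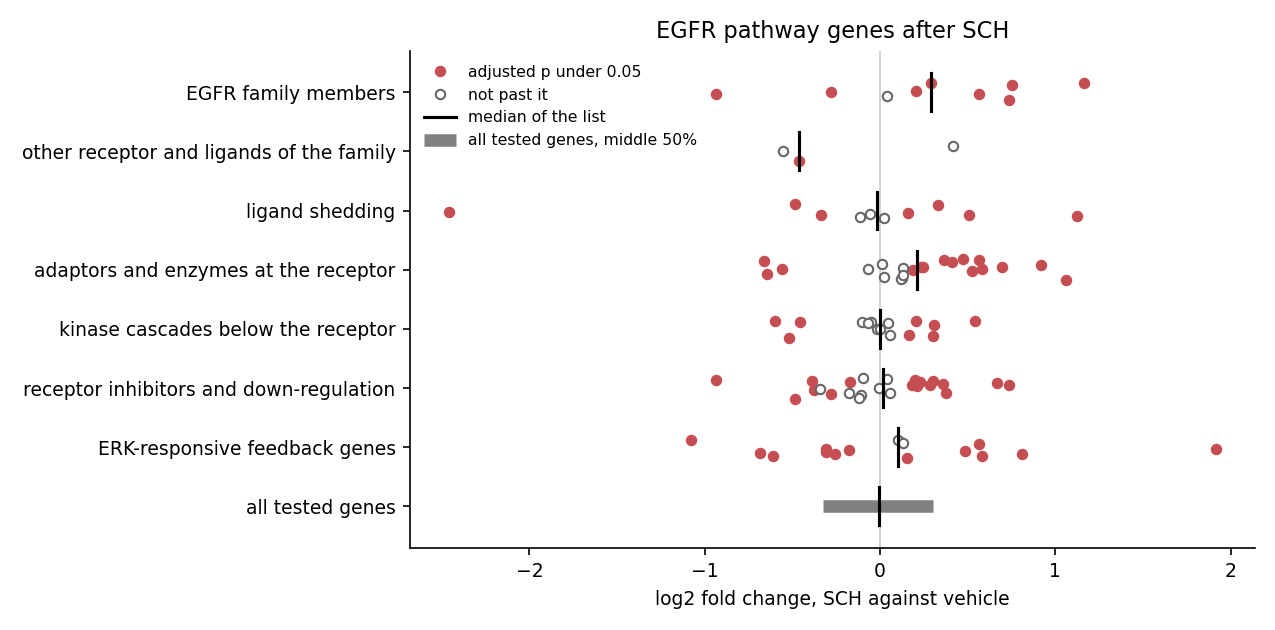
Log2 fold change of SCH against vehicle (horizontal axis) for each tested gene of the EGFR family and of the pathway lists, filled where the adjusted p (edgeR) was under 0.05 and open otherwise, with a black line at the median of each list and, at the bottom, the middle 50% of all tested genes. Rises and falls lie side by side in every list of more than 3 genes, with EGR1 at 1.92 and ADAM12 at -2.46 at the ends.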

How the data were processed

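RNA of 6 samples was sequenced after poly-T purification of mRNA. The authors deposited unnormalized read counts for each gene in a table of all samples, and FPKM for each sample, in which counts are scaled by gene length and sample. Per the labels, processing used CASAVA 1.8, HISAT2 2.0.5, featureCounts 1.5.0-p3 and DESeq2 1.20.0 on GRCh38, as listed in the submitters' processing notes without roles. The annotation and strand setting are not given in the sources used here. All 58735 identifiers are in GENCODE 29, and 58724 have the same start and end. Total counts were 20291379, 18714240 and 18334857 in vehicle and 16836369, 17979434 and 18414924 in SCH. Floors on counts cover counting error only, while the 95% intervals of fold changes include the spread between replicates.

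The whole table was fitted in edgeR 4.0.16 (R 4.3.3) with TMM, filterByExpr, the quasi-likelihood test of SCH against vehicle without covariates, and Benjamini-Hochberg adjustment over 14736 genes at 0.05. A standard error is the size of the log2 fold change over the root of its F statistic. FPKM was used for levels of different genes, their sums, ratios and shares, and in the limma alternatives. Promoter windows of RefSeq run from 250 bases before to 50 after each start, and those of 7 of the 9 members were searched (none of ERBB3 or NRG1). Proteins were not analysed here.

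The members and lists were chosen with earlier results of these data known. Genes named were the 9 members, 7 other receptors and ligands, the markers, overlapping genes, the 3 genes nearest EGFR and, per pathway list, the 2 raised and 2 lowered genes with the largest change among those past the threshold with groups apart and 100 or more counts on average. Some genes under this rule are not reported here. Alternatives were RLE, library size only and upper quartile scaling, no filter on low counts, a minimum of 10 counts per sample, DESeq2 1.42.0 as the test, limma 3.58.1 on log2(FPKM + 1) and log2(FPKM + 0.1), a replicate block and each replicate left out. A limit of 1 on the log2 scale and the longest transcript length were chosen after seeing the data. Scripts were tested on simulated data with a far smaller share of changed genes, which does not test the scaling used here.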

Additional observations from a re-analysis of the deposited data

How the results depend on the processing

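The 8 members that passed the threshold kept their direction and their side of it under all 15 alternatives, the limit of 1 on the log2 scale apart, with log2 fold changes between -0.33 and -0.18 for EGFR, 0.24 and 0.40 for ERBB2, 0.31 and 0.84 for ERBB3, 1.11 and 1.26 for AREG, 0.52 and 0.67 for HBEGF, 0.69 and 0.86 for TGFA, -0.97 and -0.77 for NRG1, and 0.17 and 0.31 for ERRFI1. EREG never passed (adjusted p 0.0606 to 0.961 in edgeR, DESeq2 and limma). Its log2 fold change was -0.0074 without vehicle replicate 2, and -0.0074 to 0.10 when each replicate was left out. The cause was not tested. With the limit of 1 on the log2 scale, 1292 genes and 1 member were called. EGF, the 1 called gene among the other receptor and ligands, left a count of 0 in DESeq2 and of 0 to 1 when each replicate was left out. EGF was also lost with library size alone and in limma, where BTC passed instead. Of 29 other pathway genes and EGFR neighbours examined, 25 kept direction and side in every alternative, the exceptions being EGF, BTC, ADAM17 and FAIM. FAIM, nearest to EGFR, lost its call in 5 alternatives, DESeq2 and SCH replicates 2 and 3 left out among them. Samples of the same replicate number showed no clear shared deviation (correlations of deviations 0.0604, -0.0276 and 0.0417). Those of unlike number gave -0.114 to 0.0802. These values cannot show whether the samples were prepared in pairs. With a replicate block, 8705 genes and 8 members were called. ERBB3 had the fewest counts of the 9 genes, and the scarce ligands had low counts too. For ERBB3 in vehicle, counting error alone gives a coefficient of variation of 10.3%, where the samples gave 20.9%. The effect of depth was not tested.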
